A study of Mus musculus with 22 samples.

Results

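The transcripts described here are those of 5 mouse genes that handle itaconate, citrate and isocitrate: Acod1, Slc13a3, Slc25a1, Idh1 and Idh2. They were chosen by symbol from the 15725 genes of the expression table, with their values in all 22 libraries already in view, so their levels are given as a description and no test is attached to them. All 5 passed the filter on low values of at least 1 FPKM (fragments scaled by transcript length and by the mapped fragments of the library) in at least 3 libraries, as 11070 genes did.

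The libraries were made from primary microglia, the resident macrophages of the brain, shaken off mixed glial cultures from the cortex of C57BL/6 mice aged 1 to 3 days after 8 to 10 days of culture. The libraries fell into 5 groups, and cells of every group received lipopolysaccharide (LPS, a bacterial cell wall component) at 100 ng/ml for 24 h: LPS+Baf A1 with bafilomycin A1 at 10 nM, which blocks the lysosomal proton pump (n = 5), LPS+siAtg5 after 48 h with an siRNA at 50 nM against Atg5, a gene needed to build autophagosomes (n = 5), LPS+CLA with 50 nM CLA (n = 6), LPS+dNC (n = 3) and LPS alone (n = 3). The LPS+dNC cells were also transfected for 48 h, like the LPS+siAtg5 cells, and the cells of the other groups were not transfected. The labels spell out neither CLA nor dNC, and the design text sets LPS+siAtg5 against LPS+dNC and the other treatments against LPS. The design asks how each treatment changed LPS-exposed microglia. Cultures without LPS were not analysed here, and no value below bears on LPS itself.

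Itaconate is made in the mitochondrial matrix by cis-aconitate decarboxylase, the product of Acod1, from cis-aconitate, an intermediate between citrate and isocitrate. Macrophages and microglia are known to switch Acod1 on strongly after LPS, and itaconate slows succinate dehydrogenase and activates the antioxidant factor NRF2. SLC13A3 is a sodium-coupled carrier of the plasma membrane that takes up dicarboxylates such as succinate and itaconate, and in the brain it is known from astrocytes. SLC25A1 exports citrate from mitochondria, IDH1 turns isocitrate into oxoglutarate with NADPH in the cytosol, and IDH2 does the same in mitochondria.

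In the GENCODE vM21 annotation of GRCm38, Acod1 (ENSMUSG00000022126.6) lies at chr14:103046977-103056573 on the plus strand. Slc13a3 (ENSMUSG00000018459.15) lies at chr2:165405028-165473230, Slc25a1 (ENSMUSG00000003528.15) at chr16:17925223-17928219, Idh1 (ENSMUSG00000025950.16) at chr1:65158616-65186500 and Idh2 (ENSMUSG00000030541.16) at chr7:80094846-80115392, all on the minus strand. All are protein coding, and 0% of the 50-base stretches of their longest coding transcripts recur in a transcript of another gene. Gm14437 overlaps Slc13a3 on the other strand and Gm45203 overlaps Idh2 on the same strand, each sharing 0 exon bases with it. The build the authors used is not given in the sources, so these positions only place the genes.

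The 200 bases that end 51 bases before the start of Acod1 and of Slc13a3 in the promoter set used are printed. These 2 genes were picked because they differed in opposite directions in every comparison named by the design. The starts of the promoter set are not the GENCODE gene ends given above, and the positions of matches below are counted from the promoter set. The sequences are from RefSeq on GRCm38.p6, read 5′ to 3′ on the strand of the gene, at chr14:103046762-103046961 (plus strand) and chr2:165473248-165473447 (minus strand). Capitals mark matches on either strand to the patterns searched.
Acod1: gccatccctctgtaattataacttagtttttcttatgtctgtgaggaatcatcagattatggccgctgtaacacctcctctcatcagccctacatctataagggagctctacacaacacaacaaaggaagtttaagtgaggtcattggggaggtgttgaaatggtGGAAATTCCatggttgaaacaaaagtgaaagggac
Slc13a3: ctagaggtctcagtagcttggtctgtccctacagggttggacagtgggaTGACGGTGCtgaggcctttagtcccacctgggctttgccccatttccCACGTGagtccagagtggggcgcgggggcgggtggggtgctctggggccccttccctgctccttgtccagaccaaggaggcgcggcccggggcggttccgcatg
The patterns were GGNNTTTCC for NF-kB, GAAANNGAA for interferon response elements, the E-box CACGTG and the antioxidant response core TGACNNNGC. The Acod1 window held an NF-kB pattern at bases -85 to -77, on the opposite strand, which 3.88% of 32851 mouse promoters hold in the same window. The Slc13a3 window held the antioxidant response core at -201 to -193, found in 7.66% of promoters, and the E-box at -154 to -149, found in 4.34%. The interferon pattern, present in 5.79% of promoters, was in none of the windows of the 5 genes, and Slc25a1 held an E-box at -239 to -234. A match is a string of letters and says nothing of binding.

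Atg5, the gene targeted by the siRNA, was at 13.3, 13.5, 12.9, 12.6 and 13.2 FPKM in the LPS+siAtg5 libraries, against 24.3, 21.4 and 21.4 FPKM in the LPS+dNC libraries, with no overlap. The LPS+siAtg5 libraries differed from the rest across the transcriptome, with 10752 to 10908 genes at 1 FPKM or more and a median over genes of 4.53 to 4.8 FPKM. The other 17 libraries held 9112 to 9571 such genes, with medians of 2.62 to 3.25 FPKM. In 3 groups 1 library lay apart from its mates, as the SD over genes of its log2 differences to them, median over mates, was 0.269 for LPS+CLA replicate 2 (0.145 to 0.153 for its mates), 0.37 for LPS+dNC replicate 1 (0.269 and 0.288) and 0.278 for LPS replicate 3 (0.215 and 0.221). All 10 microglia and macrophage markers averaged 1 FPKM or more in every group except LPS+dNC, where Cx3cr1 did not. Astrocyte, neuron and mesenchymal or endothelial markers were highest in LPS+siAtg5, as given beside Slc13a3 below. So were 8 oligodendrocyte lineage markers, which summed to 28.1 to 32.4 FPKM there, against 3.63 to 14.4 FPKM in LPS+dNC.

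Acod1, the only enzyme known to make itaconate in these cells, was among the most abundant transcripts of every group. It was at 1832, 1870.25, 1866, 1844 and 1914 FPKM in LPS+Baf A1 and at 621, 621, 626, 597 and 605 FPKM in LPS+siAtg5. In LPS+CLA its lowest, median and highest values were 690.0, 706 and 905 FPKM. The LPS+dNC libraries had 1888, 1759 and 1758 FPKM and the LPS libraries 1148, 1201 and 1381 FPKM. LPS+Baf A1 and LPS+dNC overlapped at the top, LPS lay between, and LPS+CLA and LPS+siAtg5 lay below with no overlap between neighbours. By group mean Acod1 ranked 22 of 15725 genes in LPS+Baf A1, 67 in LPS+siAtg5, 68 in LPS+CLA, 29 in LPS+dNC and 33 in LPS. The ranks show that the lower groups still held Acod1 among their leading transcripts.

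Slc13a3, the carrier that can bring itaconate and other dicarboxylates into a cell, had the widest range of the 5 genes as a fold, its highest library being 18.2 times its lowest. Its LPS+CLA libraries ran between 349.9 and 631 FPKM with a median of 617 FPKM, and the LPS+siAtg5 libraries were at 279, 244, 286, 261 and 235 FPKM. The LPS+Baf A1 libraries had 37.6, 36.2, 41.6, 39.3 and 36.3 FPKM, the LPS+dNC libraries 34.7, 64.6 and 76.1 FPKM, and the LPS libraries 56.05, 53.6 and 70.6 FPKM. LPS+CLA lay above LPS+siAtg5 and both lay above all other libraries, without overlap. Among the lower groups LPS+dNC overlapped both LPS and LPS+Baf A1, while LPS+Baf A1 lay below LPS. The lowest LPS+CLA value came from replicate 2, the library that also lay apart across all genes. By rank of the group mean Slc13a3 was 1902 of 15725 in LPS+Baf A1, 272 in LPS+siAtg5, 104 in LPS+CLA, 1285 in LPS+dNC and 1220 in LPS.

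Slc25a1, the mitochondrial citrate carrier, varied least as a fold, its highest library being 1.88 times its lowest. It was at 36.9, 37.0, 34.5, 33.6 and 31.3 FPKM in LPS+Baf A1, at 39.8, 39.6, 39.9, 38.8 and 41.7 FPKM in LPS+siAtg5, and between 30.3 and 34.3 FPKM with a median of 33.1 FPKM in LPS+CLA. The LPS+dNC libraries had 36.1, 31.8 and 25.25 FPKM and the LPS libraries 22.2, 23.0 and 27.5 FPKM. LPS+siAtg5 lay above every other library, and LPS+Baf A1, LPS+CLA and LPS+dNC overlapped each other, as did LPS+dNC and LPS.

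Idh1, the cytosolic isocitrate dehydrogenase, split the groups fully. Its libraries were between 63.0 and 70.4 FPKM with a median of 64.1 FPKM in LPS+CLA, and at 41.2, 39.6, 39.85, 41.45 and 43.5 FPKM in LPS+siAtg5. They were at 38.45, 35.8, 31.35, 32.7 and 34.65 FPKM in LPS+Baf A1, at 6.44, 8.27 and 7.49 FPKM in LPS+dNC and at 16.2, 14.4 and 15.3 FPKM in LPS. The order was LPS+CLA, LPS+siAtg5, LPS+Baf A1, LPS and LPS+dNC, with no overlap between any neighbours.

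Idh2, the mitochondrial counterpart, had another order. It was at 29.6, 32.9, 28.95, 29.0 and 30.5 FPKM in LPS+siAtg5, between 13.6 and 21.2 FPKM with a median of 20.5 FPKM in LPS+CLA, and at 14.4, 16.2, 12.5, 14.5 and 14.1 FPKM in LPS+Baf A1. The LPS+dNC libraries had 3.66, 3.75 and 3.54 FPKM and the LPS libraries 8.87, 8.15 and 7.93 FPKM. LPS+siAtg5 lay above all others, LPS+CLA overlapped LPS+Baf A1 only through its replicate 2, and LPS and LPS+dNC lay lowest without overlap.

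**Figure D1:**
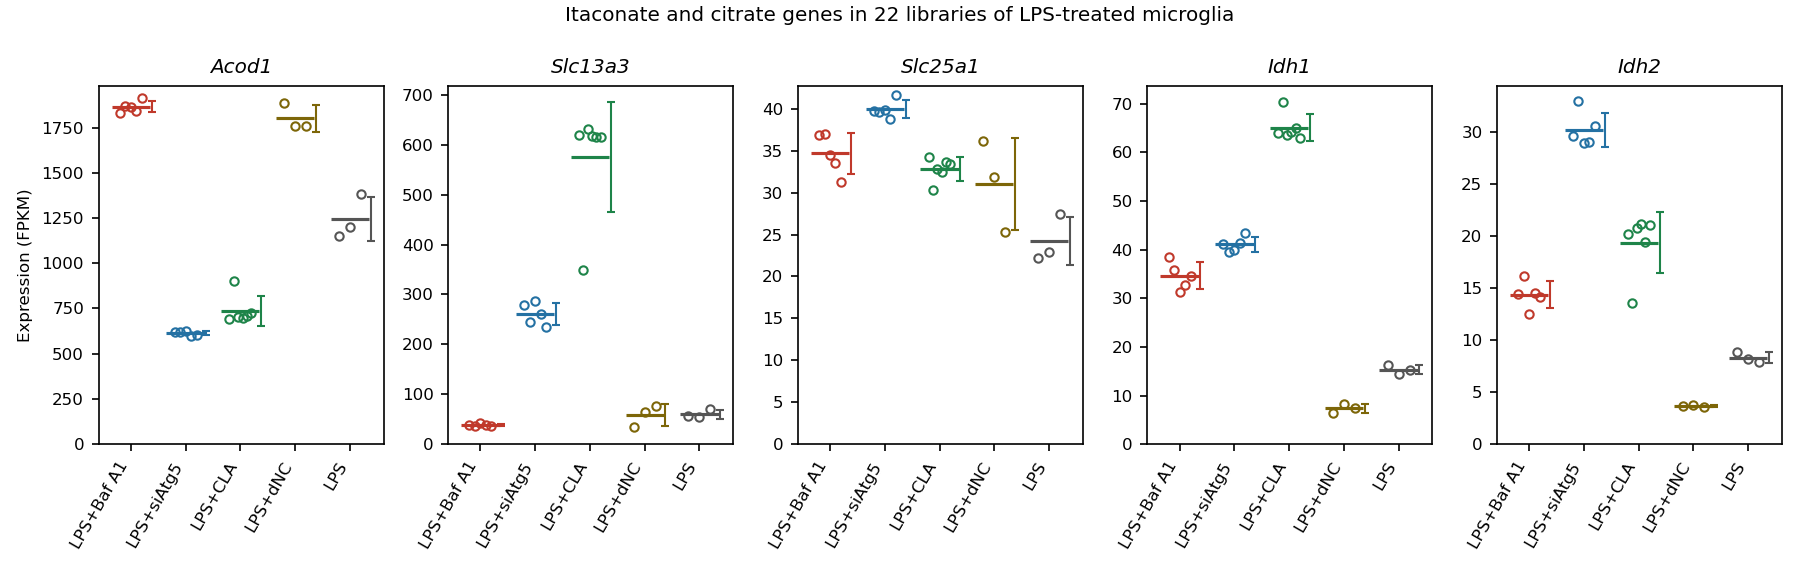
Expression in FPKM (linear axes) of Acod1, Slc13a3, Slc25a1, Idh1 and Idh2 in each of the 22 libraries, by group; open circles are libraries, horizontal lines group means and bars 1 SD (n = 5, 5, 6, 3 and 3, left to right). Slc13a3 was at 349.9 FPKM or more in every LPS+CLA library and at 76.1 FPKM or less in every LPS+Baf A1, LPS+dNC and LPS library.

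The plot of values by library shows the single LPS+CLA library that stood apart in 4 of the 5 genes. Replicate 2 had more Acod1 (905 FPKM) and Idh1 (70.4 FPKM) and less Slc13a3 (349.9 FPKM) and Idh2 (13.6 FPKM) than each of its mates. Its Slc13a3 was still above every LPS+siAtg5, LPS+Baf A1, LPS+dNC and LPS library.

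LPS+Baf A1 against LPS gave higher levels of the itaconate synthase, the citrate carrier and both dehydrogenases, and a lower level of the dicarboxylate carrier. Differences are of log2(FPKM + 1) in a limma model of all 22 libraries, with the standard error of the model. Acod1 averaged 1865 ± 31.4 FPKM in LPS+Baf A1 and 1244 ± 122 FPKM in LPS (SD, n = 5 and 3), a difference of 0.59 (SE 0.069), and Idh1 averaged 34.6 ± 2.77 FPKM in LPS+Baf A1 against 15.3 ± 0.925 FPKM in LPS, a difference of 1.13 (SE 0.066). Idh2 differed by 0.72 (SE 0.10) and Slc25a1 by 0.50 (SE 0.082). Slc13a3 averaged 38.2 ± 2.28 FPKM in LPS+Baf A1 against 60.1 ± 9.18 FPKM in LPS, a difference of -0.63 (SE 0.20). The libraries of the 2 groups did not overlap for any of the 5 genes. Over all 11070 genes 52.7% did not overlap, and the median gene differed by 0.039.

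LPS+siAtg5 against LPS+dNC gave less Acod1 and more Slc13a3, Idh1 and Idh2. Acod1 averaged 614 ± 12.3 FPKM in LPS+siAtg5, against 1801 ± 74.7 FPKM in LPS+dNC, a difference of -1.55 (SE 0.069), which was -0.88 after quantile normalization. Idh2 averaged 30.2 ± 1.66 FPKM in LPS+siAtg5 against 3.65 ± 0.105 FPKM in LPS+dNC, an 8.27-fold ratio of means and a difference of 2.74 (SE 0.10). Idh1 averaged 41.1 ± 1.56 FPKM in LPS+siAtg5 against 7.40 ± 0.918 FPKM in LPS+dNC, a difference of 2.33 (SE 0.066). Slc13a3 averaged 261 ± 21.98 FPKM in LPS+siAtg5 against 58.5 ± 21.3 FPKM in LPS+dNC, a difference of 2.21 (SE 0.20). Slc25a1 differed by 0.37 (SE 0.082), which is 0.03 once the median difference of all genes, 0.339, is taken off. Relative to that median the other differences were -1.89 for Acod1, 1.87 for Slc13a3, 1.99 for Idh1 and 2.41 for Idh2. The median itself depended on the filter, being 0.248 with a filter of 5 FPKM and 0.197 with no filter, so these remainders do too. Slc25a1 differed by 0.26 after quantile normalization and by 0.05 after median-of-ratios scaling. The 2 groups did not overlap for any of the 5 genes, where 77% of all genes did not.

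The choice of comparator moved the siAtg5 values. LPS+dNC cells were transfected, as the LPS+siAtg5 cells were, and LPS cells were not. LPS+dNC had more Acod1 than LPS (difference 0.54, SE 0.077, but 0.067 after quantile normalization) and less Idh1 (-0.96, SE 0.074) and Idh2 (-1.0015, SE 0.11), without overlap, while Slc25a1 (0.34, SE 0.092) and Slc13a3 (-0.10, SE 0.22) overlapped. Without LPS+dNC replicate 1 the Slc13a3 difference was 0.23, and without LPS replicate 3 it was 0.02, so its sign rested on single libraries. Thus 3 of the 5 genes did not overlap between LPS+dNC and LPS, against 53.6% of all genes. Set against LPS, LPS+siAtg5 differed by -1.01 in Acod1, 2.11 in Slc13a3, 0.71 in Slc25a1 (0.36 after median-of-ratios scaling), 1.37 in Idh1 and 1.74 in Idh2, where the median gene differed by 0.312. The 5 genes had no overlap there either, as had 70.7% of all genes. The comparisons share the LPS+siAtg5, LPS+dNC or LPS libraries and are not independent of each other.

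LPS+CLA against LPS gave the largest difference of Slc13a3. It averaged 575 ± 110.4 FPKM in LPS+CLA and 60.1 ± 9.18 FPKM in LPS (SD, n = 6 and 3), a 9.57-fold ratio of means and a difference of 3.22 (SE 0.19), which ranked 3 among the differences of 11070 genes, largest first. Idh1 averaged 65.1 ± 2.72 FPKM in LPS+CLA against 15.3 ± 0.925 FPKM in LPS, a difference of 2.02 (SE 0.064) that ranked 41. Idh2 differed by 1.12 (SE 0.097) and Slc25a1 by 0.43 (SE 0.079), while Acod1 averaged 738 ± 82.5 FPKM in LPS+CLA against 1244 ± 122 FPKM in LPS, a difference of -0.75 (SE 0.067). Without LPS+CLA replicate 2 the Slc13a3 difference was 3.36, that of Acod1 -0.81, that of Idh1 1.998 and that of Idh2 1.21. None of the 5 genes overlapped between LPS+CLA and LPS, where 51.6% of all genes did not, and the median gene differed by 0.09.

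**Figure D2:**
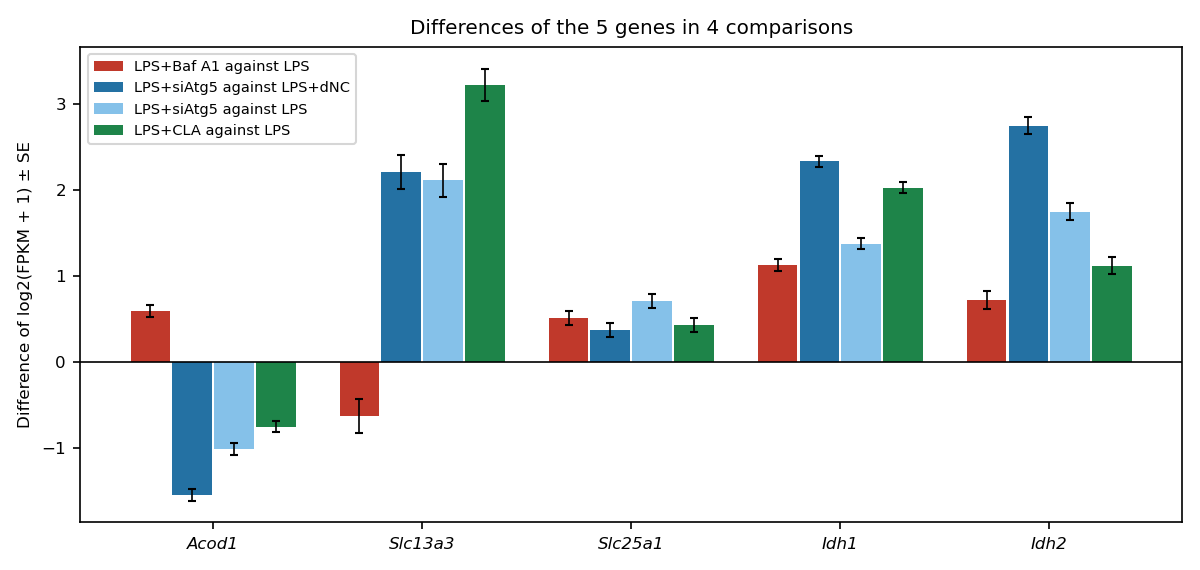
Differences of log2(FPKM + 1) for the 5 genes in 4 comparisons; bars start at 0 and error bars are the standard error of the limma model. Acod1 and Slc13a3 had opposite signs in each of the 4 comparisons, and Idh1, Idh2 and Slc25a1 were above 0 in all 4.

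In the plot of differences the bars of Acod1 and Slc13a3 point in opposite directions throughout, with Acod1 higher only in LPS+Baf A1. The ratio of Slc13a3 to Acod1 within a library puts this on a single scale. It averaged 0.798 ± 0.202 in LPS+CLA (SD, n = 6), 0.425 ± 0.0321 in LPS+siAtg5 (n = 5), 0.0205 ± 0.0014 in LPS+Baf A1 (n = 5), 0.0328 ± 0.0129 in LPS+dNC (n = 3) and 0.0482 ± 0.0033 in LPS (n = 3). The LPS+CLA and LPS+siAtg5 libraries lay between 0.387 and 0.899, and all others between 0.0184 and 0.0511. The lowest LPS+CLA ratio was again replicate 2, whose 0.387 lay just under the lowest LPS+siAtg5 ratio of 0.388. The ratio of Idh1 to Idh2 was 3.47 ± 0.853 in LPS+CLA, 1.37 ± 0.094 in LPS+siAtg5, 2.42 ± 0.19 in LPS+Baf A1, 2.03 ± 0.236 in LPS+dNC and 1.84 ± 0.0804 in LPS, highest with CLA and lowest with siAtg5. Replicate 2, with the most Idh1 and the least Idh2 of its group, had the highest LPS+CLA ratio (5.19), and the lowest LPS+CLA ratio was 2.99.

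**Figure D3:**
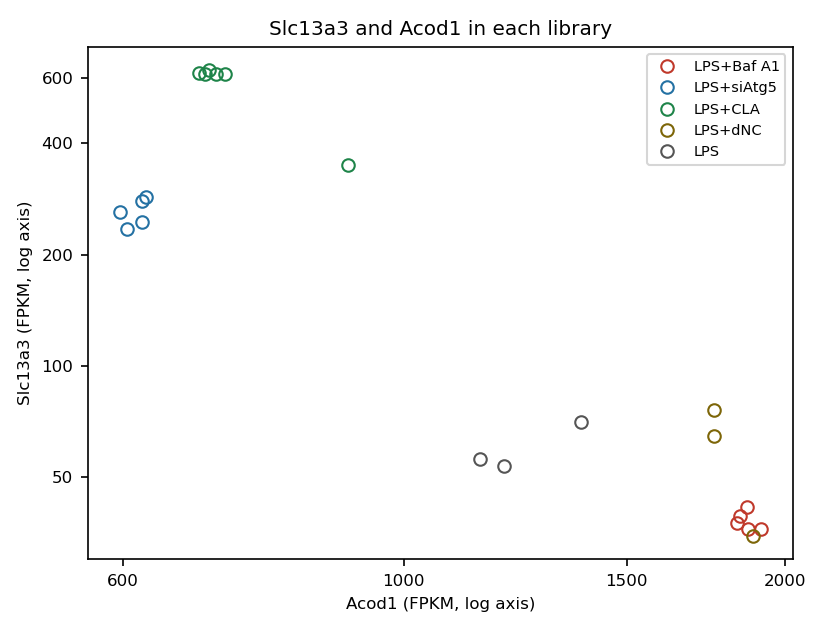
Slc13a3 against Acod1 in each of the 22 libraries, both in FPKM on log axes, coloured by group. The LPS+CLA and LPS+siAtg5 libraries lie at the upper left, with Slc13a3 at 235 FPKM or more and Acod1 at 905 FPKM or less, and all others lie at the lower right.

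As the plot of Slc13a3 against Acod1 shows, LPS+CLA and LPS+siAtg5 libraries lay apart from all others, so no pooled correlation is given. Among the others, LPS+dNC replicate 1 lay beside the LPS+Baf A1 libraries and away from its mates. Astrocytes are known to express Slc13a3, so their markers were read beside it. The summed level of 10 astrocyte markers was 336 to 393 FPKM in LPS+siAtg5, against 5.63 to 20.4 FPKM in LPS+dNC. Of the 10, Aqp4, S100b and Sox9 passed the filter on low values only through LPS+siAtg5, so no count of calls is given. Gfap, the astrocyte filament protein, averaged 126 ± 7.81 FPKM in LPS+siAtg5, against 2.14 ± 1.91 FPKM in LPS+dNC, and Aqp4, the water channel of astrocyte endfeet, 53.4 ± 2.06 FPKM in LPS+siAtg5, against 0.337 ± 0.255 FPKM in LPS+dNC. The 10 microglia and macrophage markers summed to 2451 to 2579 FPKM in LPS+siAtg5, against 1872 to 1936 FPKM in LPS+dNC. Of these 8 were called higher in LPS+siAtg5 and 2 lower (limma adjusted p under 0.05), with a median difference of 0.56, where 59.6% of all genes were called higher. Aif1 averaged 354 ± 13.2 FPKM in LPS+siAtg5, against 191 ± 18.7 FPKM in LPS+dNC, and Itgam was among the lower ones, at 544 ± 18.3 FPKM in LPS+siAtg5, against 718 ± 97.9 FPKM in LPS+dNC. In LPS the 10 markers summed to 2632 to 3143 FPKM, above every LPS+siAtg5 library. Against LPS 5 were called higher in LPS+siAtg5 and 4 lower (median difference 0.21), where 61.2% and 15.6% of all genes were. LPS+dNC had 2 of them higher and 6 lower than LPS (median difference -0.39), where 29% and 28.1% of all genes were. Neuron markers (7 genes) summed to 53.8 to 67.1 FPKM in LPS+siAtg5, against 1.86 to 12.1 FPKM in LPS+dNC, and fibroblast, mural and endothelial markers (9 genes) to 92.1 to 123 FPKM in LPS+siAtg5, against 5.86 to 15.1 FPKM in LPS+dNC. The part of these cells in the LPS+siAtg5 levels of Slc13a3, Idh1, Idh2 or Acod1 was not tested. In bulk RNA, fewer cells of a type and less RNA per cell cannot be told apart.

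In LPS+CLA, where Slc13a3 was highest, the astrocyte markers summed to 10.9 to 15.5 FPKM, against 9.25 to 14.9 FPKM in LPS. Of these 10 markers 2 were called higher and 3 lower, with a median difference of -0.22. Of all genes 40.4% were called higher in this comparison and 22.6% lower. Aqp4, S100b and Sox9, which passed the filter only through LPS+siAtg5, were at 1.0 FPKM or less in every other library. Gfap averaged 1.01 ± 0.345 FPKM in LPS+CLA against 2.05 ± 0.759 FPKM in LPS, and Aqp4 0.317 ± 0.0532 FPKM in LPS+CLA against 0.717 ± 0.267 FPKM in LPS. The sums of the 2 groups overlapped. In LPS+Baf A1 the astrocyte markers summed to 17.9 to 20.7 FPKM, with 3 of the 10 called higher and 1 lower against LPS. Of all genes 32.7% were called higher there and 25.1% lower. Of 6 tested neuron markers all 6 were called lower in LPS+CLA than in LPS (median difference -0.87), and 3 were lower in LPS+Baf A1. Snap25 and Syt1 of that list, and Pdgfrb of the next, passed the filter only through LPS+siAtg5. They were at 1.14 FPKM or less in every other library, so their values here were low. Of 7 tested fibroblast, mural and endothelial markers 4 were called higher and 0 lower in each of LPS+CLA (median difference 0.94) and LPS+Baf A1 (0.43). The 6 markers of border macrophages and monocytes summed to 159 to 283 FPKM in LPS+CLA and 187 to 244 FPKM in LPS+Baf A1, against 104 to 118 FPKM in LPS, a sum made up mostly of Pf4, at 244 ± 44.6 FPKM in LPS+CLA, 209 ± 25.2 FPKM in LPS+Baf A1 and 97.7 ± 7.96 FPKM in LPS. Of the 3 tested, Pf4 was called higher in both, Mrc1 lower in both and Ly6c2 lower in LPS+CLA. The part of these markers in the levels of the 5 genes was not tested.

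**Figure D4:**
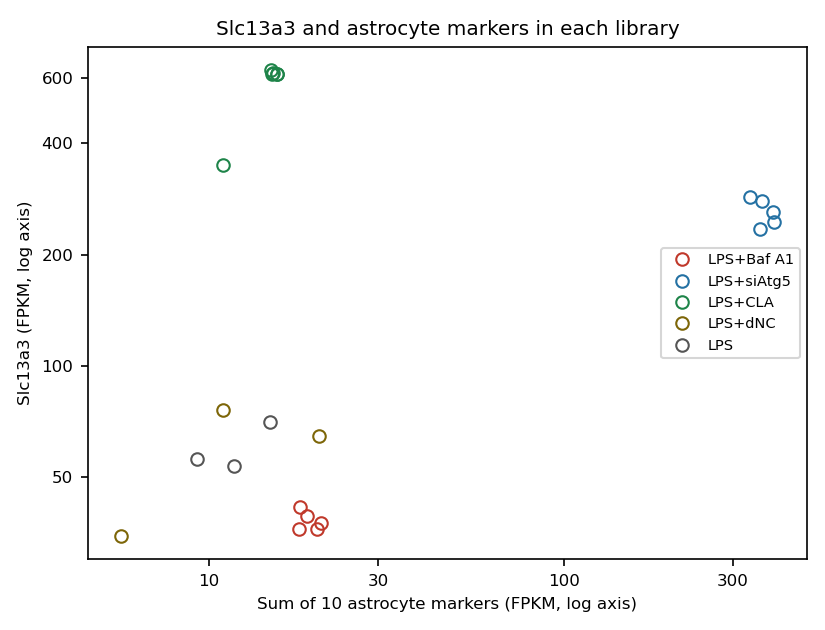
Slc13a3 in FPKM against the summed FPKM of 10 astrocyte markers in each of the 22 libraries, log axes, coloured by group. The LPS+siAtg5 libraries stand at marker sums of 336 to 393 FPKM, while the LPS+CLA libraries reach higher Slc13a3 at 10.9 to 15.5 FPKM.

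The plot against astrocyte markers separates the 2 groups with high Slc13a3. The genes whose centred group means were most like a member's were then found by the root mean square of the log2 deviations over the 5 group means. For Acod1 these were Mmp8, a collagenase (0.196), Hdc, which makes histamine (0.21), and Clec4e, a receptor for microbial glycolipids (0.231). Clec4e averaged 933 FPKM in LPS+Baf A1, 215 FPKM in LPS+siAtg5, 345 FPKM in LPS+CLA, 597 FPKM in LPS+dNC and 540.5 FPKM in LPS. For Slc13a3 the nearest were further away: Trp53rka (0.619), Slc35g1 (0.676) and Ndrg1 (0.678). Trp53rka averaged 44.3 FPKM in LPS+CLA, 41.9 FPKM in LPS+siAtg5, 9.75 FPKM in LPS+Baf A1, 11.5 FPKM in LPS+dNC and 12.1 FPKM in LPS. By this measure no gene followed Slc13a3 as closely as Mmp8, Hdc and Clec4e followed Acod1. The measure is not scaled to a gene's own range, which was 18.2-fold over the libraries for Slc13a3 and 3.2-fold for Acod1. The 2 sets of distances are therefore not on a like scale.

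The rest of the pathway was read from 6 lists holding 63 genes, of which 56 passed the filter on low values and were tested. Oxgr1 was not in the table, and Slc25a21, Slc13a2, Slc13a4, Slc13a5 and Sucnr1 were among those under the filter, so Slc13a3 was the only listed member of the Slc13 family that could be tested. Calls are at a limma adjusted p (Benjamini-Hochberg, all 11070 genes) under 0.05. In LPS+Baf A1 against LPS 36 of the 56 were called higher and 7 lower, or 64.3% and 12.5%, where 32.7% and 25.1% of all genes were. The list median was 0.35.

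Of the 6 lists, those of TCA cycle enzymes and of cytosolic citrate use and NADPH supply had the largest shares of genes called higher with Baf A1, at 82.4% and 88.9%. Of 17 TCA cycle enzymes 14 rose and 1 fell, Sdhd (a succinate dehydrogenase subunit) by 0.64, Mdh2 (malate dehydrogenase) by 0.56, Cs (citrate synthase) by 0.48 and Ogdh by 0.38. The list of cytosolic citrate use and NADPH supply also holds mitochondrial enzymes, such as Nnt. Of its 9 genes 8 rose, most of them enzymes of malate, aspartate and NADPH turnover, led by Me1, the cytosolic malic enzyme, at 8.37 ± 0.588 FPKM in LPS+Baf A1 and 2.88 ± 0.0757 FPKM in LPS, a difference of 1.27. Mdh1 (0.79), Got2 (0.67), Me2 (0.66) and Acly, which splits citrate (0.31), were also higher. Of 7 carriers 5 rose, led by the lactate exporter Slc16a3 (1.90, 158 ± 6.21 FPKM in LPS+Baf A1 and 41.8 ± 4.39 FPKM in LPS) and the dicarboxylate carrier Slc25a10 (0.88), with Slc25a11 (0.53) and Slc25a12 (0.38), and the glutamate carrier Slc25a22 fell by 0.51. Of 12 genes of pyruvate entry 7 rose and 1 fell, with Pdk1, a kinase that restrains pyruvate dehydrogenase, at 1.47, Pcx (pyruvate carboxylase) at 1.12, Dlat at 0.72, Pdhb at 0.38 and Pdp1 at -0.28. Of 5 tested genes of the list of itaconate breakdown, metabolite receptors and glutamine entry 2 rose. They were Clybl, which cleaves the itaconate product citramalyl-CoA (1.09), and Glud1 (0.22).

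Of the 6 factors known to drive or restrain Acod1 transcription 4 fell and none rose with Baf A1, and Acod1 itself was higher. The list mixes drivers and restrainers, and their part in the Acod1 level was not tested. Irf1, an interferon regulatory factor that drives Acod1, averaged 69.8 ± 3.67 FPKM in LPS+Baf A1 and 194 ± 13.9 FPKM in LPS, a difference of -1.46 (adjusted p = 6.67e-14 in limma). Nfe2l2, which encodes NRF2, differed by -0.56 and Rela by -0.15. Several small calls rested on single LPS libraries: without LPS replicate 3 the calls of Rela (-0.10) and Pdp1 (-0.20) were lost, and without LPS replicate 2 that of Glud1 (0.16). The Glud1 call was also lost under median-of-ratios scaling (0.17). Dld fell by 0.13 and lost its call when any of 5 libraries was left out, among them LPS replicate 1 (-0.09), LPS replicate 3 (-0.14), and LPS+Baf A1 replicates 2 (-0.10), 3 (-0.14) and 4 (-0.12). Without LPS replicate 3 the pathway genes called lower numbered 4 in place of 7.

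**Figure D5:**
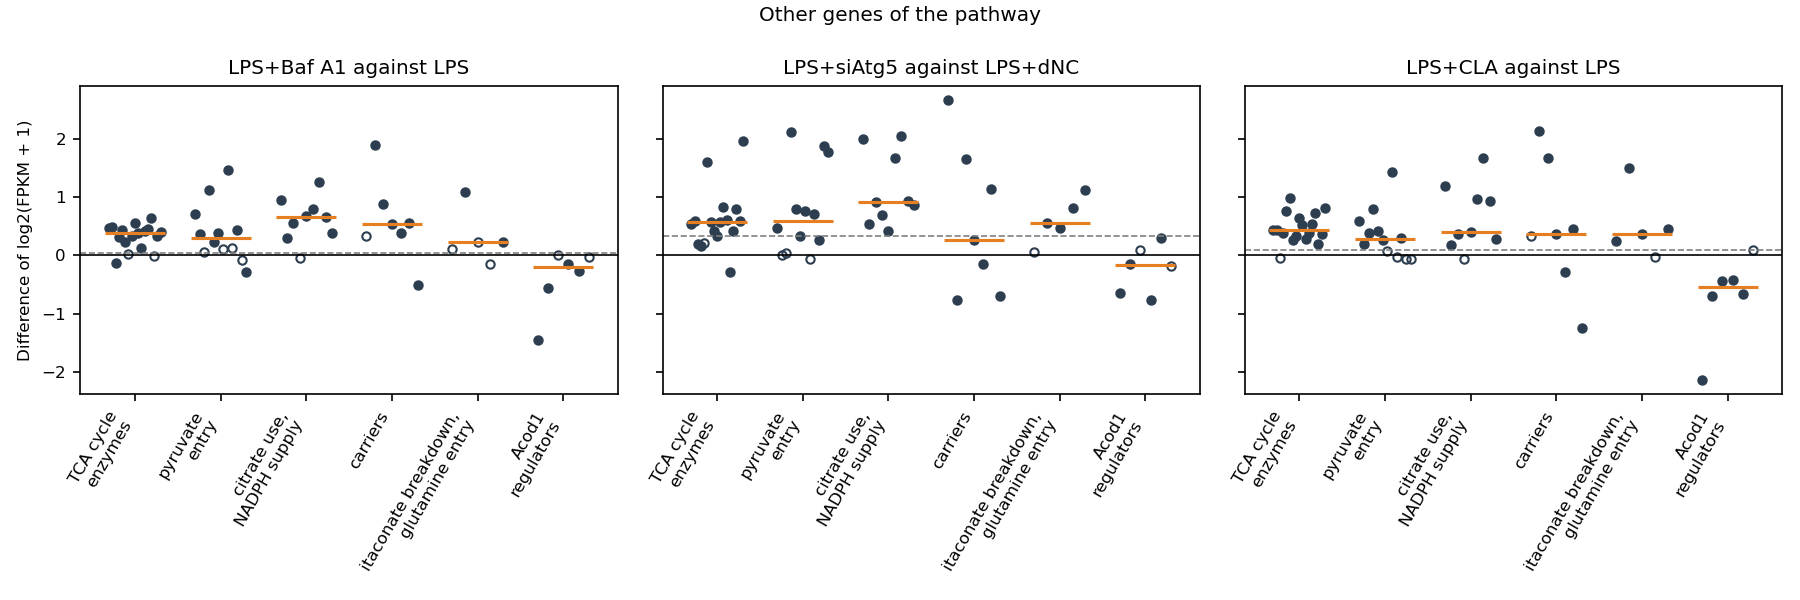
Differences of log2(FPKM + 1) for the 56 tested genes of the 6 pathway lists in 3 comparisons; filled circles passed the limma test, open circles did not, orange lines are list medians and dashed lines the median of all 11070 genes. The list of factors acting on Acod1 has the lowest median in each panel, at -0.21, -0.17 and -0.55, left to right.

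In LPS+siAtg5 against LPS+dNC 42 of the 56 pathway genes were called higher and 7 lower, or 75% and 12.5%, where 59.6% and 21.6% of all genes were. The 42 include Pdk4, which passed the filter on low values only through LPS+siAtg5. Other genes of this kind among all 11070 were not counted. As the plot of pathway genes shows, the median of all genes was itself raised here (0.339), and the list median was 0.55. Of all calls 73.4% were higher, against 54.1% after median-of-ratios scaling and 50.8% after quantile normalization. Of the pathway genes 32 were higher and 14 lower after median-of-ratios scaling, and 37 and 11 after quantile normalization.

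All 9 genes of the list of cytosolic citrate use and NADPH supply, which are not all cytosolic, rose with siAtg5. They include Me1 (2.05, 15.2 ± 0.349 FPKM in LPS+siAtg5, against 2.93 ± 0.447 FPKM in LPS+dNC), Mdh1 (1.67), Me2 (0.94), the mitochondrial transhydrogenase Nnt (0.87) and Acly (0.54). Of the TCA cycle enzymes 15 of 17 rose and 1 fell, with Suclg2, a subunit of the GTP-forming succinyl-CoA ligase, at 1.96, Idh3a, of the NAD-dependent isocitrate dehydrogenase, at 1.61, Sdha at 0.84, Sucla2 at 0.79, Cs at 0.60 and Sdhc at -0.28. Of 12 genes of pyruvate entry 9 rose, with Pcx at 2.13, Pdp1 at 1.78 and Pdha1 at 0.79. The 9 include Pdk4, a kinase of the same enzyme, which passed the filter only through LPS+siAtg5 (2.7 to 3.56 FPKM there, at most 0.18 FPKM in every other library), so that it had to differ. Its difference of 1.89 ran between 1.2999 and 4.16 over the alternatives. Pcx averaged 6.09 ± 0.499 FPKM in LPS+siAtg5, against 0.64 ± 0.337 FPKM in LPS+dNC. Of 7 carriers 4 rose, Slc16a1 (2.67), Slc25a10 (1.66), Slc25a13 (1.14) and Slc25a11 (0.27), and 3 fell, Slc16a3 (-0.77), Slc25a22 (-0.69) and Slc25a12 (-0.14). Thus the lactate exporter Slc16a3 was lower with siAtg5 and higher with Baf A1 or CLA, each against its own comparator, and the difference between these comparisons was not tested. The sign of Slc25a11 turned under median-of-ratios scaling (-0.05), and Slc25a12 lost its call without LPS+dNC replicate 1 (-0.10).

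The list of itaconate breakdown, metabolite receptors and glutamine entry had 5 tested genes, of which 4 rose with siAtg5. Among them were Glud1, glutamate dehydrogenase (1.12), Clybl (0.56) and D2hgdh (0.47). D2hgdh was counted in this list but is an enzyme of neither itaconate breakdown nor glutamine entry. The signs of Clybl (-0.06) and D2hgdh (-0.14) turned under quantile normalization. Of the factors acting on Acod1 3 fell, Rela, the NF-kB subunit (-0.76), Irf1 (-0.64) and Nfe2l2 (-0.15), and 1 rose. Irf1 averaged 64.6 ± 2.99 FPKM in LPS+siAtg5, against 101.5 ± 6.09 FPKM in LPS+dNC (adjusted p = 5.96e-09 in limma). The Nfe2l2 call was lost without LPS+dNC replicate 2 (-0.15) or replicate 3 (-0.08). Set against LPS, LPS+siAtg5 had 45 of the 56 pathway genes higher and 8 lower, where 61.2% and 15.6% of all genes were. Pdk4, which passed the filter only through LPS+siAtg5, is again among the 56. Of all calls there 79.7% were higher, against 50.8% after median-of-ratios scaling, which left 28 pathway genes higher and 12 lower, and 48.5% after quantile normalization. LPS+dNC had 12 of the 56 higher and 21 lower than LPS, where 29% and 28.1% of all genes were, with a list median of -0.06.

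In LPS+CLA against LPS 40 of the 56 pathway genes were called higher and 7 lower, or 71.4% and 12.5%, where 40.4% and 22.6% of all genes were. The list median was 0.37. Of all calls 64.1% were higher, against 49.4% after median-of-ratios scaling and 53.6% after quantile normalization. Under either scaling 35 pathway genes were higher and 9 lower.

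With CLA 16 of 17 TCA cycle enzymes rose and none fell: Idh3a by 0.98, Sdhd by 0.73, Mdh2 by 0.64, Ogdh by 0.52 and Cs by 0.44 among them. Of 9 genes of cytosolic citrate use and NADPH supply 8 rose, with Me1 at 1.67 (11.4 ± 1.20 FPKM in LPS+CLA and 2.88 ± 0.0757 FPKM in LPS), Acaca, which commits acetyl-CoA to fatty acid synthesis, at 1.19, Mdh1 at 0.96 and Me2 at 0.93. Acly differed by 0.17 and lost its call without LPS replicate 3 (0.07). It also lost it under median-of-ratios scaling (0.03), under quantile normalization (0.10) and in the fit of 2 groups (0.17). Slc25a10, which exchanges malate and succinate for phosphate across the inner mitochondrial membrane, averaged 189 ± 7.47 FPKM in LPS+CLA and 58.9 ± 5.86 FPKM in LPS, a difference of 1.67, and Slc16a3 differed by 2.14. Slc25a13 (0.45) and Slc25a11 (0.37) were the other carriers that rose, and Slc25a22 (-1.26) and Slc25a12 (-0.28) fell. Pyruvate entry had 8 of 12 genes higher, with Pdk1 at 1.44, Pcx at 0.79, Dlat at 0.59 and Pdha1 at 0.43.

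Clybl, of itaconate breakdown, averaged 6.55 ± 0.803 FPKM in LPS+CLA and 1.66 ± 0.125 FPKM in LPS, a difference of 1.497. Glud1 (0.45), D2hgdh (0.36) and Auh, also of itaconate breakdown (0.24), were higher too. The Auh call was lost without LPS replicate 1 (0.24) or replicate 2 (0.21), and under median-of-ratios scaling (0.12) or quantile normalization (0.11). Of the 6 factors acting on Acod1 5 fell and none rose. Irf1 averaged 43.1 ± 3.74 FPKM in LPS+CLA and 194 ± 13.9 FPKM in LPS, a difference of -2.15 (adjusted p = 1.75e-17 in limma), with Nfe2l2 at -0.70 and Rela at -0.43. Irf1 was thus lower in LPS+Baf A1, LPS+siAtg5 and LPS+CLA than in the comparator of each, while Acod1 was higher in LPS+Baf A1 and lower in LPS+siAtg5 and LPS+CLA.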

How the data were processed

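Sequencing of RNA from cultured primary mouse microglia gave 22 libraries. The authors deposited FPKM with 2 decimals; the file headers name this unit in 19 columns, and the 3 LPS+dNC columns, which carry none, were read as FPKM from their values. The submitters' processing notes list StringTie 1.3.1, HISAT2, Bowtie2 2.2.8, fastp 0.18.0 and CASAVA 1.7, and the build is not given in the sources used. Without counts the depth is unknown and no counting interval is given. Libraries were grouped by title; nothing says that the cultures were separate, so each p-value reflects only the spread among these libraries, possibly technical.

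Genes with at least 1 FPKM in 3 libraries (11070 of 15725) were fitted as log2(deposited FPKM + 1), which understates changes of low genes, in limma 3.58.1 (R 4.3.3; 5 group means, 17 residual degrees of freedom, trend and robust), with Benjamini-Hochberg adjustment and calls under 0.05. The pipeline was tested on simulated data. Members, lists and tests were chosen with earlier results of these data known. Named pathway genes are up to 4 called genes per list, direction and comparison with the smallest adjusted p, plus Acly, Cs and Irf1, and the 3 genes nearest to Acod1 and to Slc13a3; some genes of the lists are counted but not reported here. Alternatives were another pseudocount (0.1), filters on low values, scalings, array weights, fits of 2 groups, a replicate block, left-out libraries, and leaving out together the 3 libraries that lay apart, which earlier results had named. Python 3.11.15 drew figures and read the GENCODE vM21 and RefSeq tables.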

Additional observations from a re-analysis of the deposited data

Results flagged for a closer look

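LPS+CLA replicate 2 stood apart from the other 5 LPS+CLA libraries in 4 of the 15 sets of a gene and a group that were checked with Dixon's test, a test by which chance marks about 1 set in 20. Its values were 904.6 FPKM for Acod1, 349.87 FPKM for Slc13a3, 70.44 FPKM for Idh1 and 13.58 FPKM for Idh2. The same library lay apart across all genes, so these values are not 4 separate events. Without it the LPS+CLA against LPS difference was 3.36 for Slc13a3, -0.81 for Acod1, 1.998 for Idh1 and 1.21 for Idh2.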

How the results depend on the processing

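Of 420 alternative values of the differences of the 5 genes, 383 moved by less than 1 residual SD, 33 moved by more and 4 changed sign. The other filters on low values and the fits of 2 groups cannot move a difference of group means. Their values are among the 383 and say nothing about stability. A pseudocount of 0.1 gave 2.47 (Idh1) and 3.01 (Idh2) for LPS+siAtg5 against LPS+dNC and -1.17 (Idh2) for LPS+dNC against LPS. Median-of-ratios scaling gave, for LPS+siAtg5 against LPS+dNC, -1.87 (Acod1), 1.89 (Slc13a3), 0.052 (Slc25a1), 2.02 (Idh1) and 2.45 (Idh2), with 3981 genes and 14 pathway genes called lower. For LPS+siAtg5 against LPS it gave -1.37, 1.75, 0.36, 1.03 and 1.41 in that order, with 3962 genes and 28 pathway genes called higher and 3833 genes lower, and for LPS+CLA against LPS -0.90 (Acod1), 0.29 (Slc25a1) and 1.89 (Idh1). Quantile normalization gave 0.42 (Acod1) for LPS+Baf A1 against LPS, and for LPS+siAtg5 against LPS+dNC -0.88 (Acod1), 2.16 (Idh1) and 2.52 (Idh2), with 4387 genes higher, 4245 lower and 11 pathway genes lower. It gave -0.85 (Acod1) and 1.91 (Idh1) for LPS+CLA against LPS, -0.81 (Acod1), 0.58 (Slc25a1), 1.24 (Idh1) and 1.54 (Idh2) for LPS+siAtg5 against LPS, with 3903 genes higher and 4144 lower, and 0.067 (Acod1) for LPS+dNC against LPS. Array weights gave 2.22 (Idh1) for LPS+siAtg5 against LPS+dNC, and 0.21 (Slc13a3, sign changed) and -0.83 (Idh1) for LPS+dNC against LPS. Fitting only LPS+dNC and LPS left 7 pathway genes called higher. Without the 3 libraries that lay apart, Slc13a3 differed by 1.88 in LPS+siAtg5 against LPS+dNC and by 0.35 in LPS+dNC against LPS (sign changed). Among the 80 named pathway gene differences, 11 lost their call or changed sign under some of 1382 alternatives, and 3 changed sign, all for LPS+siAtg5 against LPS+dNC: Slc25a11 (-0.050) under median-of-ratios scaling, and Clybl (-0.062) and D2hgdh (-0.14) under quantile normalization. The cause was not tested.

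Leaving out 1 library at a time gave -0.32 to 0.23 for Slc13a3 and 0.23 to 0.48 for Slc25a1 in LPS+dNC against LPS, 1.88 to 2.43 for Slc13a3 and 0.23 to 0.48 for Slc25a1 in LPS+siAtg5 against LPS+dNC, and 4 to 7 pathway genes called lower in LPS+Baf A1 against LPS. Libraries of compared groups that share replicate number 1, 2 or 3 did not deviate together (correlations of -0.131 to 0.155), so these numbers gave no sign of pairing. Higher replicate numbers, which LPS and LPS+dNC do not have, were not checked. With a replicate block the Acly difference in LPS+CLA against LPS was 0.16 and lost its call, and no other call of a named gene was lost; replicate 6 exists only in LPS+CLA and has a block of its own. The depth of the libraries is unknown, so the precision of low values such as Slc25a13 or Pdk4 rests on the spread between libraries alone.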
